A study of Solanum lycopersicum with 6 samples.

Results

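miR171 and miR169 are plant microRNA families whose known targets encode transcription factors, and every row of 6 lists of pedicel miRNAs that carries either name is described here. A row belonged to these families when its name before the first hyphen was miR171 or miR169, with or without a lowercase letter for the locus. This gave 8 of the 266 distinct designations and 32 of the 826 rows over all lists, of which 26 rows (6 designations) are miR171 and 6 rows (2 designations) are miR169. The libraries hold small RNA of the distal pedicel, the segment of the fruit stalk between the abscission zone and the calyx, at 10 days after anthesis (DAA), from the *hws-1* mutant (3 samples) and from WT (3 samples). Both lines are tomato (*Solanum lycopersicum*) of the dwarf cultivar 'Micro-Tom'. *hws-1* is a chemically (EMS) induced, weak allele of *HAWAIIAN SKIRT* (*HWS*), an F-box protein gene, and was used after backcrossing (BC3). Each sample was a bulk of several pedicel segments, so a lower level can mean fewer cells of a type or less of the RNA per cell, and these cannot be told apart. The lists hold miRNAs only, so the tissue could not be checked against marker genes.

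miR171 guides the cleavage of mRNAs of GRAS transcription factors of the HAIRY MERISTEM (HAM) group, which maintain undifferentiated cells in plant meristems. miR169 acts in the same way on mRNAs of the NF-YA subunits of the CCAAT-binding factor NF-Y, known for roles in drought and nutrient responses, flowering and, in legumes, nodule development. A miRNA is cut from a hairpin, whose 5p arm and 3p arm each give a strand. The strand that is usually kept is called the mature strand and its partner the star strand. In Arabidopsis the miR171 strand that acts on the HAM mRNAs comes from the 3p arm, and the miR169 strand that acts on NF-YA mRNAs comes from the 5p arm. In the lists the words mature and star are assigned otherwise for most of these rows, with miR171a and miR171b called mature on 5p and miR169 called mature on 3p. The lists give no sequence for a row, so the strands are described by arm and designation only. The target mRNAs were not measured in these libraries.

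Values are TPM as the study uses the word, that is, reads scaled to a library of 1000000 reads, with no division by length. The worth of 1 read was estimated as the step of which the most rows of families with 1 listed locus were whole multiples. It was doubled while most of these rows stayed whole. Such rows were whole in 15 of 23, 19 of 29 and 12 of 25 cases in *hws-1* replicates 1, 2 and 3. In WT replicates 1, 2 and 3 they were whole in 27 of 37, 19 of 26 and 17 of 32. All numbers of reads given here rest on this estimate. By it, 1 read was worth 5.55, 6.36 and 8.76 TPM in *hws-1* replicates 1, 2 and 3, against 3.19, 3.88 and 3.57 TPM in WT replicates 1, 2 and 3. This corresponds to between 114212 and 180179 reads in *hws-1* libraries and between 257798 and 313526 reads in WT libraries. Which reads enter the scaling is not given in the sources used here, and the study states a larger nominal depth, so these numbers need not be those of reads sequenced. By these numbers, the deepest *hws-1* library was shallower than the shallowest WT library, and an effect of depth cannot be told apart from that of the line. Between 112 and 132 rows were listed in a *hws-1* library and between 136 and 176 in a WT library. miR171 and miR169 rows together made up between 0.0857% and 0.237% of the listed TPM in *hws-1* and between 0.103% and 0.356% in WT.

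The families were unevenly listed. The 2 miR171 loci named miR171a and miR171b were in all 6 lists with both arms. A locus named miR171c was in the list of WT replicate 1 only, and miR169 was in the lists of *hws-1* replicate 1, WT replicate 1 and WT replicate 3. Hence 4 of the 8 designations were present in every library, as were 60 of all 266, and 3 of these 4 had a value above 0. Of all designations, 88 were in 1 list only, and 40 of these 88 were in that of WT replicate 1, the deepest library by scaled reads. miR171c therefore stands among many names that this library alone holds.

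The miR171a and miR171b loci gave most of their reads from the 5p arm, and this arm had higher values in every *hws-1* library than in any WT library. miR171a-5p and miR171b-5p had the same value in each library. Each stood at 91.6, 92.2 and 109.4 TPM in *hws-1* replicates 1, 2 and 3, against 73.4, 62.1 and 44.7 TPM in WT replicates 1, 2 and 3. The lowest *hws-1* library lay above the highest WT library. Each row averaged 97.7 ± 10.1 TPM in *hws-1* and 60.0 ± 14.5 TPM in WT (SD, n = 3 each), a ratio of means of 1.63. The exact permutation test (two-sided) gave p = 0.1, the smallest value that 3 against 3 libraries allow. By limma on log2(TPM + 1) the difference was 0.72 with an SE of 0.34 and a 95% interval of -0.02 to 1.45, and the adjusted p was 0.25 over the 58 designations tested. The difference in miR171a-5p and miR171b-5p was thus not past the threshold of 0.05. In order of the log2 difference it shared place 9 of 58, and the median over the 58 was 0.07.

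None of the 3 miR171 designations tested by limma had an adjusted p under 0.05, and none had an unadjusted p under 0.05. Over all 58 designations 4 passed, which is 6.90%, and 11 had an unadjusted p under 0.05. Of the 4, 2 were higher (miR319b-3p and miR319c-3p) and 2 lower (miR319a-3p and miR393-5p) in *hws-1*. Summed over loci, miR319-3p differed by 0.45 (limma adjusted p 0.50). Locus letters were given list by list, and whether a miR319 letter names the same locus in every list was not tested. A lack of overlap with *hws-1* on the upper side, as seen in 2 of the 3 miR171 designations, was found in 7 of the 58, or 12.1%. These 2 designations hold the same values and count as 1 measurement. miR171b-5p is among the miRNAs that the study picked out from these very libraries, so its direction here is not independent evidence.

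**Figure D1:**
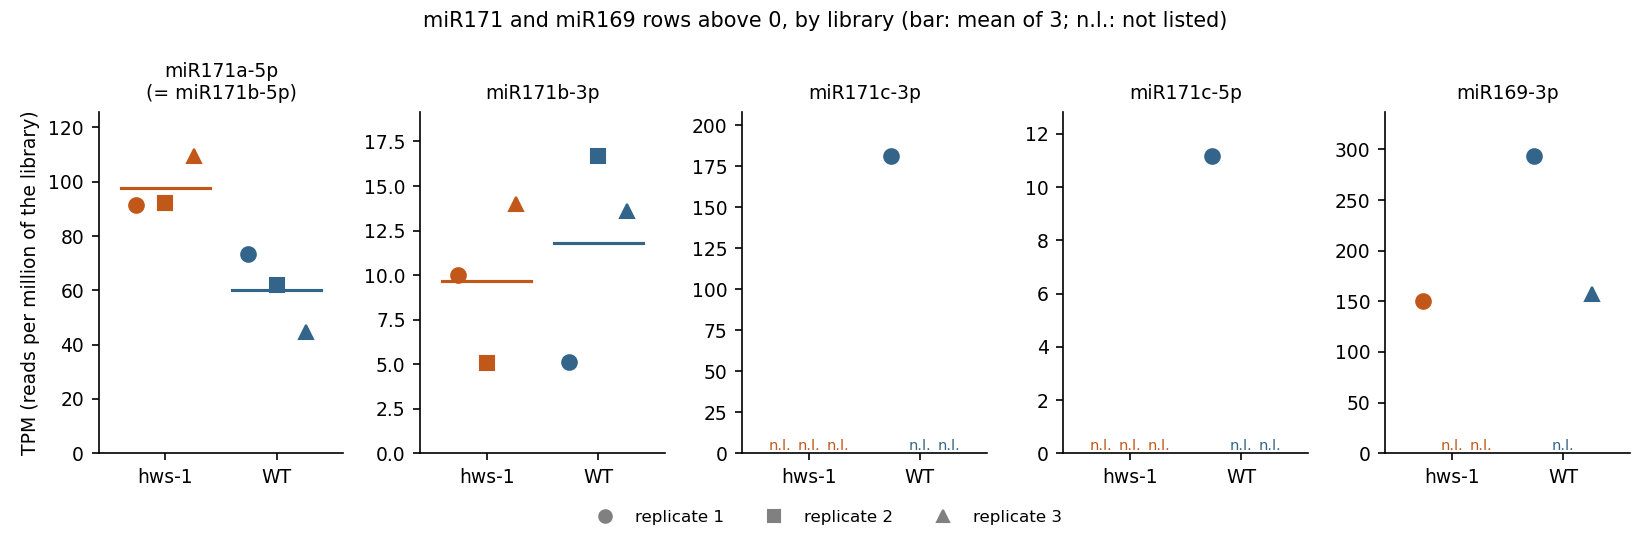
Each point is the value of 1 library in TPM (reads scaled to a library of 1000000 reads) for a miR171 or miR169 row above 0, with *hws-1* libraries left of WT libraries, the replicate number as the shape, a bar at the mean of 3 libraries and n.l. where the list does not hold the row. The miR171a-5p points, which are also those of miR171b-5p, do not overlap between the lines (mean 97.7 TPM in *hws-1* and 60.0 TPM in WT), those of miR171b-3p do, and the miR171c and miR169 rows are missing from most lists.

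The 5p values rest on few reads. In 4 of the 6 libraries the value of miR171a-5p was a whole number of reads plus 0.5, and the sum of miR171a-5p and miR171b-5p was whole in all 6, as when reads that match both loci are shared out evenly between them. The sum was 33, 29 and 25 reads in *hws-1* replicates 1, 2 and 3, against 46, 32 and 25 reads in WT replicates 1, 2 and 3. In reads, therefore, *hws-1* had no more than WT, with 87 in total against 103, and the higher TPM appears once the reads are divided by the depth of each library. The summed level was 183.2, 184.4 and 218.9 TPM in *hws-1*, against 146.7, 124.1 and 89.3 TPM in WT. Exact Poisson 95% intervals, which cover counting error only, ran from 142 to 323 TPM in the highest *hws-1* library (replicate 3) and from 57.8 to 132 TPM in the lowest WT library (replicate 3). These were the only 2 libraries whose intervals were apart, since the intervals overlapped in 8 of the 9 pairs of a *hws-1* with a WT library. Overlap of such intervals is not a test of a difference, and the pooled reads of the lines were not tested. The part of depth in this difference was not tested.

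**Figure D2:**
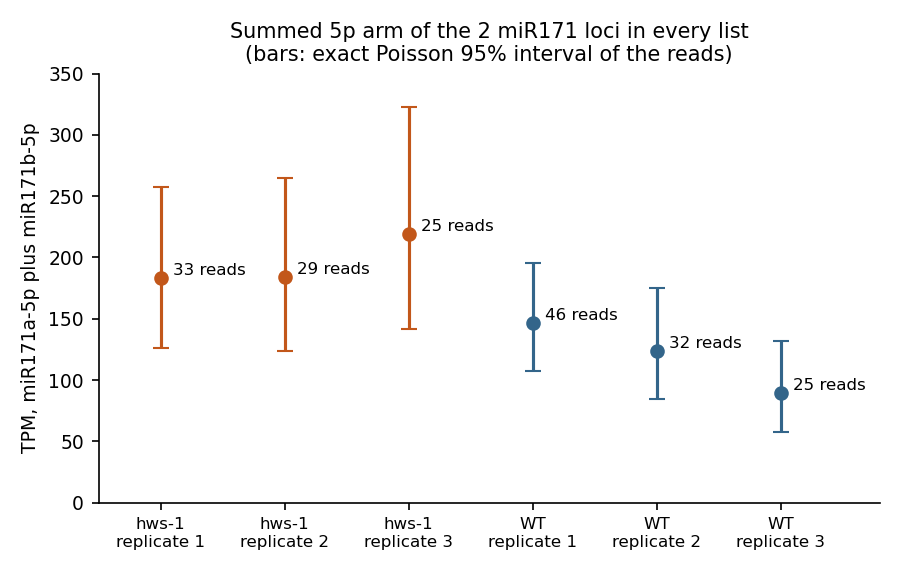
Points give miR171a-5p plus miR171b-5p in TPM for each library, *hws-1* replicates to the left and WT replicates to the right, with the number of reads beside each point and bars for the exact Poisson 95% interval. The *hws-1* points (183.2 to 218.9 TPM) stand above the WT points (89.3 to 146.7 TPM), while nearly all bars overlap across the lines.

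The 3p strands of these 2 loci were scarce. miR171a-3p was listed at 0 in all 6 libraries, which, taken as under 3 reads, allows up to 16.7, 19.1 and 26.3 TPM in *hws-1* replicates 1, 2 and 3 and up to 9.57, 11.6 and 10.7 TPM in WT replicates 1, 2 and 3. miR171b-3p, called the star strand, stood at 9.99, 5.09 and 14.0 TPM in *hws-1* replicates 1, 2 and 3, against 5.10, 16.7 and 13.6 TPM in WT replicates 1, 2 and 3. The libraries of the lines overlapped. These levels correspond to between 0.8 and 1.8 reads in *hws-1* and between 1.6 and 4.3 reads in WT, all of them fractions left by sharing reads among positions. miR171b-3p averaged 9.70 ± 4.47 TPM in *hws-1* and 11.8 ± 5.99 TPM in WT (SD, n = 3 each; exact permutation p = 0.7). The log2 difference was -0.22 with an SE of 0.47 and a limma adjusted p of 0.93, and it turned positive without *hws-1* replicate 2 (0.14) or without WT replicate 2 (0.09). At this depth no difference in miR171b-3p was detectable.

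Within miR171b, the 5p strand was 9.17, 18.1 and 7.81 times as abundant as the 3p strand in *hws-1* replicates 1, 2 and 3, against 14.4, 3.72 and 3.29 times in WT replicates 1, 2 and 3. WT replicate 1 thus lay within the *hws-1* range and the other 2 WT libraries below it, and the exact permutation test gave p = 0.5. The divisor of this ratio is under 5 reads in every library. Its 5p value equals that of miR171a-5p in each library, as when reads that match both loci are shared evenly. How many of those reads came from miR171b is not known.

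The miR171c locus had the opposite arm in excess. In WT replicate 1, miR171c-3p, called mature, stood at 181.3 TPM (56.8 reads) and miR171c-5p, called star, at 11.2 TPM (3.5 reads), a ratio of 16.2. Both are fractions of reads, as left by sharing reads among positions, so how much came from this locus alone is not known. The 3p value under this name was larger than the summed 5p value of miR171a and miR171b in that library (146.7 TPM). It supplied 97.3% of all miR171 3p TPM there, and its 5p strand 7.07% of the miR171 5p TPM. In 3p excess, miR171c has the arm that carries the HAM-directed strand in Arabidopsis, whereas miR171a and miR171b have the other. Why the name is missing from the other lists was not tested.

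Summed over loci, the 5p arm of miR171 was 183.2, 184.4 and 218.9 TPM in *hws-1* replicates 1, 2 and 3, against 157.9, 124.1 and 89.3 TPM in WT replicates 1, 2 and 3. The lines did not overlap. The means were 195.5 ± 20.3 TPM in *hws-1* and 123.8 ± 34.3 TPM in WT (SD, n = 3 each), a ratio of 1.58 with an exact permutation p = 0.1. On the log2 scale the sum was higher in *hws-1* by 0.69 (SE 0.32, 95% interval -0.06 to 1.44), with a limma adjusted p of 0.26 over 44 family arms, and it took place 11 of 44, where the median arm was at 0.06. This difference depended on the scaling. With every library scaled to an equal sum over its list it was 0.48, and with each library centred on its median it was 0.12, where the median arm itself was at -0.15 and -0.51. These scalings shift all arms of a library nearly alike, so the distance of the 5p sum from the median arm is no further evidence.

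The 3p sum of miR171 is a sum over different loci in different libraries. It was 9.99, 5.09 and 14.0 TPM in *hws-1* replicates 1, 2 and 3, against 186.4, 16.7 and 13.6 TPM in WT replicates 1, 2 and 3, so that WT replicate 1 alone stood far above the rest and *hws-1* replicate 3 lay above WT replicate 3. The means were 9.70 ± 4.47 TPM in *hws-1* and 72.2 ± 98.9 TPM in WT (SD, n = 3 each; exact permutation p = 0.2). The log2 difference was -1.86 (SE 0.95, 95% interval -4.10 to 0.37), with a limma adjusted p of 0.27. Fitted with a block for replicate number, the same difference had an adjusted p of 0.017, and without WT replicate 2 it was -2.38 with an adjusted p of 0.022. Without WT replicate 1, the library that holds miR171c, it was -0.68 (adjusted p 0.55), and with only the names present in all lists it was -0.22 (adjusted p 0.91). Most of the difference in the 3p sum thus came with miR171c in WT replicate 1, and the block was not fitted without that library. Over alternatives the adjusted p of the 3p sum ranged from 0.017 to 0.91.

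Neither miR171 arm had an adjusted p or an unadjusted p under 0.05 by limma. Among all 44 family arms 3 passed, or 6.82%, with 2 on the higher and 1 on the lower side in *hws-1*, and 9 had an unadjusted p under 0.05. Of the 2 miR171 arms, 1 had every *hws-1* library above every WT library, as did 9 of the 44 arms, or 20.5%.

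Both arms together, miR171 amounted to 193.1, 189.5 and 232.9 TPM in *hws-1* replicates 1, 2 and 3, against 344.3, 140.8 and 102.9 TPM in WT replicates 1, 2 and 3. WT held both the highest and the lowest library. The means were 205.2 ± 24.1 TPM in *hws-1* and 196.0 ± 129.8 TPM in WT (SD, n = 3 each), and the exact permutation p was 1. Without miR171c, the miR171a and miR171b loci amounted to 205.2 ± 24.1 TPM in *hws-1* and 131.8 ± 25.7 TPM in WT, with no overlap and an exact permutation p of 0.1. The family total therefore differs by a ratio of 1.05 or of 1.56 according to whether a locus that 1 list holds is counted.

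The 5p arm made up 94.8%, 97.3% and 94.0% of miR171 TPM in *hws-1* replicates 1, 2 and 3, against 45.9%, 88.2% and 86.8% in WT replicates 1, 2 and 3. The 5p arm was thus dominant in 5 of the 6 libraries, and in WT replicate 1 the 3p arm of miR171c took the larger part. The mean share was 95.4 ± 1.73% in *hws-1* and 73.6 ± 24.0% in WT (SD, n = 3 each), a difference of 21.8 percentage points with an exact permutation p = 0.1 and an adjusted p of 0.37 over 22 families. miR171 was the 1 family of these 22, or 4.55%, in which every *hws-1* library had a higher 5p share than every WT library. In 5 others, or 22.7%, namely miR393, miR394, miR482, miR5300 and miR6027, every *hws-1* share was lower than every WT share, with the same exact permutation p of 0.1 and adjusted p of 0.37. Without WT replicate 1 the difference was 7.90 points. In the libraries without miR171c, the 3p part of the share was miR171b-3p alone. It rested on 1.8, 0.8 and 1.6 reads in *hws-1* replicates 1, 2 and 3, against 4.3 and 3.8 reads in WT replicates 2 and 3. Over miR171a and miR171b alone the shares were 94.8%, 97.3% and 94.0% in *hws-1*, against 96.6%, 88.2% and 86.8% in WT. Then the lines overlapped, and the difference was 4.84 points (exact permutation p = 0.3).

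Dominance of the 5p arm was the less common state among the families. In 13 of the 22 families with both arms above 0 the 3p arm held more than 50% in all 6 libraries, in 4 the 5p arm did, and in 5, miR171 among them, the arm differed between libraries. Counted by the words mature and star in place of the arm, miR171 mature strands made up 95.4 ± 1.73% in *hws-1* and 90.1 ± 4.55% in WT (SD, n = 3 each), a difference of 5.30 points with an exact permutation p = 0.3.

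**Figure D3:**
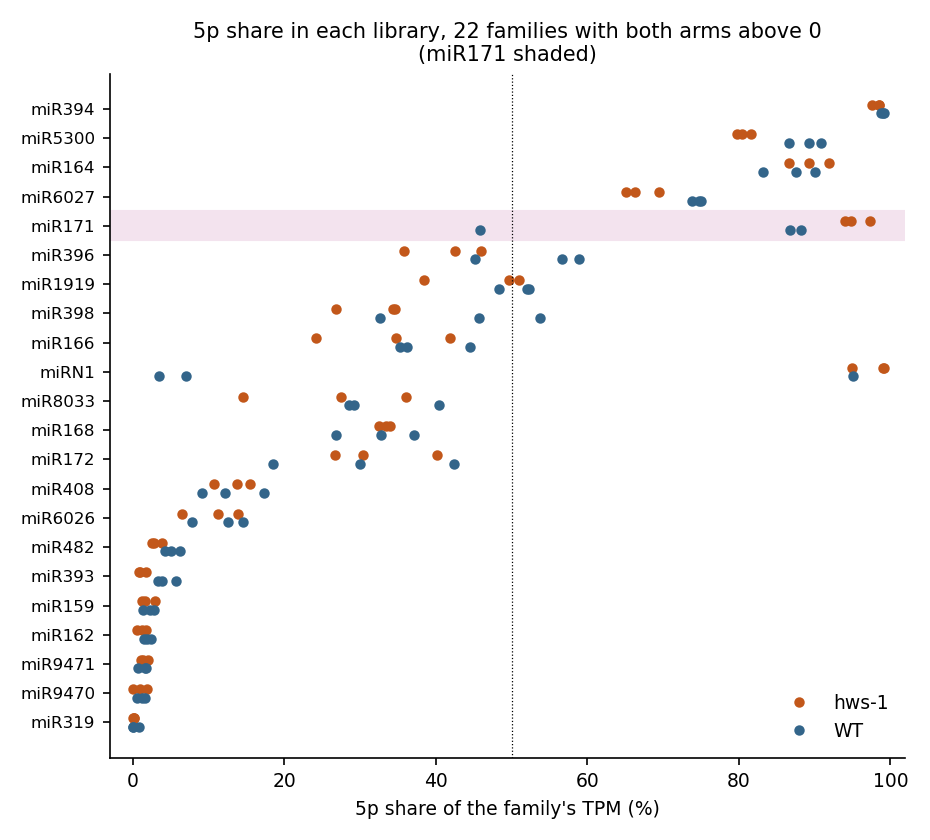
The 22 families were listed in every library, with each arm above 0 in at least 1. Points give the 5p share of each family's TPM in percent, with *hws-1* libraries drawn above WT libraries. miR171 is shaded and a dotted line marks 50%. The miR171 points lie at 94.0% to 97.3% in *hws-1* and at 86.8% and 88.2% in 2 WT libraries, while WT replicate 1 is at 45.9%.

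miR169 was listed with 1 locus, and only its 3p strand had reads. miR169-3p stood at 149.9 TPM in *hws-1* replicate 1, against 293.4 TPM in WT replicate 1 and 157.2 TPM in WT replicate 3. These were 27 reads in *hws-1* replicate 1, against 92 and 44 reads in the 2 WT libraries, whole in each. The worth of 1 read was estimated with these rows among others, so their being whole is no evidence on whether reads were shared. The *hws-1* value lay close to the lower of the 2 WT values, and its exact Poisson 95% interval of 98.8 to 218 TPM spans it. The interval of WT replicate 1, from 237 to 360 TPM, lay above that of *hws-1* replicate 1 and above that of WT replicate 3 (114 to 211 TPM). The 2 WT libraries that list miR169 thus differed from each other beyond counting error, as did *hws-1* replicate 1 from WT replicate 1.

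miR169-5p, called the star strand here and the arm of the NF-YA-directed strand in Arabidopsis, was listed at 0 in all 3 libraries that hold the locus, which allows up to 16.7 TPM in *hws-1* replicate 1, against 9.57 TPM in WT replicate 1 and 10.7 TPM in WT replicate 3. No line comparison was made for miR169, because *hws-1* has 1 library with a value. In the lists without miR169, other mature rows went down to 31.1 TPM in *hws-1* replicate 2, 96.3 TPM in *hws-1* replicate 3 and 11.5 TPM in WT replicate 2. Why miR169 is missing from these lists was not tested, since a list does not show loci left out.

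The place of a locus in the lists was compared between libraries, since the letters were given list by list. miR171a and miR171b kept their letters and stood after a miR394 or miR395 locus in all 6 lists, with miR156a between them in 5 lists. The locus after miR171b was miR166c in 4 lists and miR156b in those of *hws-1* replicate 1 and WT replicate 3. miR169 stood before miR162a in the 3 lists that hold it. In the tomato RefSeq annotation (assembly SLM_r2.1, used for names and neighbours only), 6 *MIR171* genes and 5 *MIR169* genes are named, against at most 3 and 1 loci in a list. *MIR171a* and *MIR171b* of RefSeq are next to each other among the miRNA genes, whereas miR156a stands between the listed pair in 5 lists. The letters of the lists were therefore not taken for those of RefSeq genes.

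Among families, miR171 was in the lower part of the order of levels in every library. By family sum it took place 24 of 27, 28 of 30 and 26 of 26 in *hws-1* replicates 1, 2 and 3, against 26 of 37, 26 of 28 and 29 of 31 in WT replicates 1, 2 and 3. miR169 took place 26 of 27 in *hws-1* replicate 1, against 29 of 37 in WT replicate 1 and 27 of 31 in WT replicate 3. Both families were thus below the middle of those listed in each library that holds them.

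Other conserved families that target transcription factors were set beside them. The list held miR156 (targets *SPL* genes), miR159 (*MYB* genes), miR164 (*NAC* genes), miR165 and miR166 (HD-ZIP III genes), miR160 and miR167 (*ARF* genes), miR172 (*AP2*-like genes), miR319 (*TCP* genes) and miR396 (*GRF* genes). Of these 10 families 7 were in the lists, with no row for miR160, miR165 or miR167, and miR156 was in 5 libraries. The nearest in level to miR171, at 205 TPM in *hws-1* and 196 TPM in WT, were miR156 with mean family sums of 291 TPM in *hws-1* and 487 TPM in WT over the libraries that list it, and miR172 with 342 TPM in *hws-1* and 479 TPM in WT. miR166 had 38413 TPM in *hws-1* and 38946 TPM in WT, the most of the list. The family sums of miR171 and miR172 overlapped over the libraries, with the highest miR171 library at 344.3 TPM and the lowest miR172 library at 300.8 TPM.

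Of the 12 arms of the 6 families present in every library, 0 passed limma at an adjusted p of 0.05. Over all 44 arms 6.82% passed. An unadjusted p under 0.05 was found for 2 of the 12, against 9 of the 44. These 2 were miR164-5p (log2 difference 1.31, adjusted p 0.14) and miR396-3p (0.86, adjusted p 0.20). For both, the lowest *hws-1* value exceeded the highest WT value, as in 9 of all 44 arms, or 20.5%. The 12 arms had a median log2 difference of 0.18, with a range of -0.43 to 1.86, against a median of 0.06 over all 44. The top of this range was miR319-5p (SE 1.40), whose mean was lower in *hws-1* (24.8 TPM) than in WT (26.9 TPM). The miR171 5p sum, at 0.69, was within this range and the miR171 3p sum, at -1.86, below it.

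**Figure D4:**
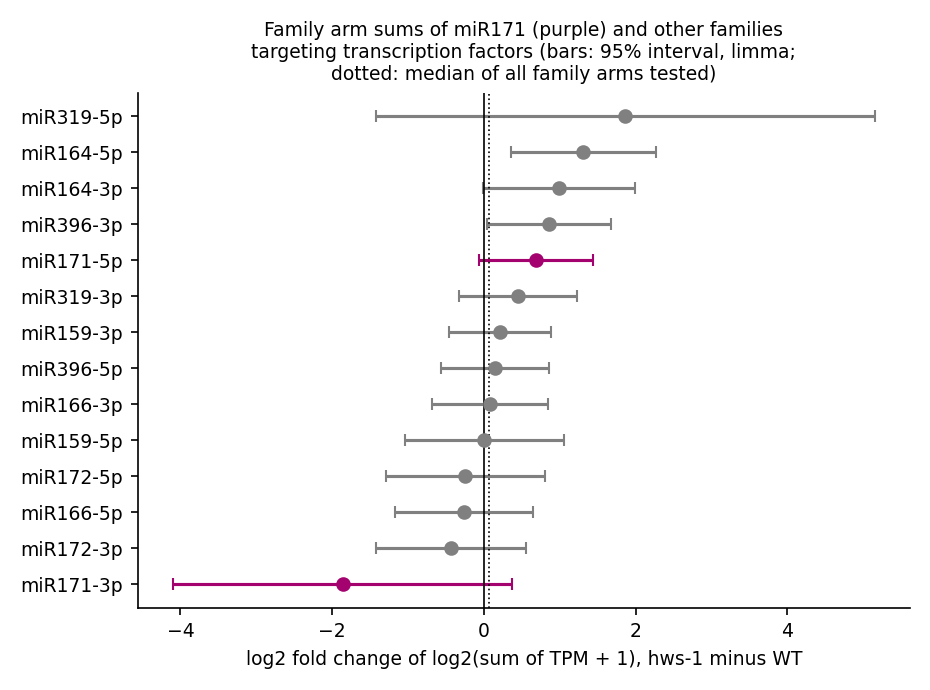
Points give the log2 difference (*hws-1* minus WT) of the family arm sum on the log2(TPM + 1) scale with its limma 95% interval, for the 2 miR171 arms (purple) and 12 arms of 6 other families that target transcription factors (grey), with a dotted line at the median of all 44 arms. Both miR171 intervals include 0, from -0.06 to 1.44 for 5p and from -4.10 to 0.37 for 3p.

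The family arms whose values over the 6 libraries were most like those of the miR171 5p sum were miR398-3p (Pearson r = 0.77), miR5300-3p (r = 0.74) and miR408-3p (r = 0.68), on the log2(TPM + 1) scale. miR398 and miR408 are known for targeting mRNAs of copper proteins. With 6 libraries that differ in line and depth alike, these values are a description only. For miR169, with 3 libraries, no such likeness was computed.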

How the data were processed

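The labels gave each sample as WT or mutant, with its replicate number, and the study's methods name the mutant as *hws-1*. For each library the authors ran the sRNAminer One Step pipeline at default settings and deposited a list of designations with RPM (reads scaled to a library of 1000000 reads), which the study calls TPM. Tool version and genome build are not given in the sources used here, and no coordinates are given. Reads with several positions are shared as fractions, and between 32.3% and 38.0% of values above 0 were whole reads (tolerance 0.001 read), so no count model was fitted.

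Rows were joined by full designation. Designations, and sums by family and arm, present in all 6 libraries and above 0 in any were tested on log2(TPM + 1) in a limma model (version 3.58.1, R 4.3.3) of line alone, adjusted by Benjamini-Hochberg with a threshold of 0.05. Fold changes on this scale understate those of low rows. For a single quantity, the lines were compared by the exact permutation test over 20 assignments. Python 3.11.15, pandas 2.3.3, numpy 2.4.6, scipy 1.17.1 and matplotlib 3.10.9 were used. The fit was tested on simulated data. A value of 0 was taken to allow 3 reads.

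All miR171 and miR169 rows are named, other families that target transcription factors are given as counts and ranges, and the 3 arms most like each family by Pearson r were to be named. miR164-5p, miR396-3p, miR319-5p and the levels of miR156, miR166 and miR172 were named after their values were seen. So were the families with lower 5p shares, the designations past the threshold and the miR319-3p sum. Members and lists were chosen with earlier results of these data known. Replicates are biological per the study's methods. Deviations from the line means went together in same-numbered samples (r of 0.16, 0.22 and 0.23 over 58 designations, against -0.33 to 0.14 for other pairs). The numbers come from the labels, and the sources used here do not state that same-numbered samples were paired. Correlations this weak, over so few libraries, cannot decide whether they were. Alternatives were pseudocounts of 0.1 and 10, a mean of at least 10 TPM, scaling to equal sums, median centring, an intensity trend, a replicate block, absent rows as 0, joining by name and arm, identical rows counted once, sums of both arms, shares by mature strand, and leaving out each library. Restricting sums and shares to names in all lists was added after seeing the data.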

Additional observations from a re-analysis of the deposited data

How the results depend on the processing

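The log2 difference of the miR171 5p sum stayed above 0 in 17 of 17 alternatives (0.12 to 0.88, adjusted p 0.21 to 0.77, 0 past the threshold). That of miR171a-5p did so in 16 of 16 (0.34 to 0.87, adjusted p 0.15 to 0.84). The 10 TPM filter, the intensity trend, the replicate block and absent rows as 0 cannot change these differences, only their adjusted p. Nor can joining by name or counting identical rows once change that of miR171a-5p. The 17 also include the sum of both arms (0.26), which is not a 5p sum. These counts therefore overstate how often the sign was put to the test. miR171b-3p was above 0 in 2 of 16, at 0.14 without *hws-1* replicate 2 and 0.09 without WT replicate 2, and ranged from -0.68 to 0.14 (adjusted p 0.48 to 0.996). The miR171 3p sum passed in 2 of 16, with the replicate block (-1.86, adjusted p 0.017) and without WT replicate 2. Leaving out each library in turn it ranged from -2.52 to -0.68. The block changed no other miR171 call. The difference in the miR171 5p share ranged from 7.90 to 29.0 points when each library was left out, the lowest without WT replicate 1.

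Counts over all features moved more. Designations passing limma were 8 with a pseudocount of 10, 8 among those averaging 10 TPM or more and 8 with the replicate block, in place of 4, and 3 to 8 when each library was left out, with 8 without *hws-1* replicate 1. Family arms passing were 11 with median centring, 7 with the replicate block and 1 with only names present in all lists, in place of 3, and 1 to 7 when each library was left out (1 without WT replicate 1, 7 without WT replicate 2 and 1 without WT replicate 3). Median centring moved the median log2 difference by -0.38 over designations and by -0.57 over arms, and scaling to equal sums moved both by -0.21. Centring gave 1 designation higher and 5 lower in *hws-1*, against 2 and 2 without it, and 2 arms higher and 9 lower, against 2 and 1. Scaling to equal sums gave 1 arm higher and 1 lower. The cause of these moves was not tested. Depth limits rows of a few reads, since 1 read was worth at least 3.19 TPM.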
